A study of Gallus gallus with 6 samples.

Results

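Genes of the protein tyrosine phosphatase families PTPN, PTPR and PTP4A were followed in the chicken B cell line DT40. The line, labelled as derived from the bursa of Fabricius, was studied as wild type and as cells labelled deficient in the transcription factor PAX5. Members were the genes whose array annotation gives a single symbol beginning with PTPN, PTPR or PTP4A. There were 36 of them among 13009 genes, namely 13 cytosolic PTPN genes, 20 receptor-type PTPR genes and 3 PTP4A genes. They have 96 probe sets on the array, and the brightest of a gene's probe sets, by mean over all 6 samples, stood for the gene. The wild-type group held 3 samples of the unmodified line. The Pax5-deficient group held 3 samples with the genotype Pax5-/-, in which the gene had been targeted with the constructs Pax5-neo and Pax5-bsr. All 6 are labelled as female B cells and were grown in the same medium at the same temperature without further treatment. The targeted cells are stable transfectant clones, and the labels do not say how many clones the 3 samples represent. They are described as biological replicates, without naming separate cultures or clones, so the p-values reflect only the spread among these 6 samples, which may be technical. Loss of PAX5 cannot be told apart from effects of targeting and clone selection.

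Protein tyrosine phosphatases remove phosphate from tyrosine residues and so oppose tyrosine kinases. In B cells the balance is central to signalling from the antigen receptor. The receptor-type phosphatase CD45, encoded by PTPRC, removes an inhibitory phosphate from kinases of the Src family such as LYN, and CSK puts that phosphate on. The cytosolic enzyme SHP1, encoded by PTPN6, is brought to the membrane by inhibitory receptors and damps the signal. Other receptor-type members carry extracellular parts that resemble cell adhesion molecules and are best known from epithelia and neurons. These roles were worked out mainly in mouse and human cells. Members were taken by symbol alone, and whether each encodes an active phosphatase was not examined.

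The values are log2 expression values made by the authors with RMA, 1 per probe set and sample. A difference is Pax5-deficient minus wild type, and a gene is said to pass when limma's Benjamini-Hochberg adjusted p, taken over all 38439 probe sets, is under 0.05. The array-wide median lay between 3.948 and 4.016 in the 6 samples. A probe set counts as above background in a sample when it exceeds the level under which 95% of 687 virus probe sets lie there. That level was between 3.77 and 3.92. The 687 were taken by exclusion, as probe sets without a chicken or control identifier and without a single gene symbol. Whether any of them detects transcript in these cells was not tested. The number of arrays limits the precision. Correlations across probe sets were 0.9946 to 0.9959 within wild type, 0.9909 to 0.9936 within the Pax5-deficient group and 0.9781 to 0.9806 between the groups. The B cell label was checked on 12 measured marker genes, of which 11 were above background in all 6 samples. EBF1 was the exception, at background in the 3 Pax5-deficient samples and at least 27.97-fold lower there. Of the 12 markers 8 fell, where 9.74% of all genes were lower, with VPREB3 at -6.60 ± 0.20 and CD72 at -4.02 ± 0.12. PAX5, SYK, IGLL1 and JCHAIN did not pass and had positive differences, with no overlap of the groups for the first 3. The 4 probe sets of the targeted gene PAX5 did not give 1 answer. The brightest read 4.60, 4.49 and 4.65 in wild type and 4.81, 4.77 and 4.90 in Pax5-deficient samples, so it was not lower there, and its difference of 0.24 ± 0.09 did not pass (limma, adjusted p = 0.136). Another read 4.55, 4.41 and 4.30 in wild type and did not exceed background in any Pax5-deficient sample, at least 1.47-fold lower (adjusted p = 0.00483), and the remaining pair was at background throughout. Their positions in the gene are not given in the annotation used, so they do not settle the check of the label.

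5 receptor-type phosphatases fell and 1 cytosolic enzyme rose. PTPRF and PTPRS of the LAR type, the closely related pair PTPRA and PTPRE, and PTPRC had differences between -2.55 and -0.65. PTPN12, an enzyme of the PEST type, rose by 0.45. The other 30 members did not pass, and their differences lay between -0.28 and 0.26. Of the 36 members 13.9% were lower, where 9.74% of all genes were, and 2.78% were higher, where 6.01% of all genes were. In either direction 6 of 36 passed, where 15.8% of all genes did, so the members as a whole stood close to the background of the comparison. Their median difference was -0.02, beside 0.03 over all genes. Of all genes that passed 61.8% were lower, beside 51.8% after quantile normalization and 66.0% with each sample centred on its median. Among the 20 receptor-type genes 5 fell, none rose (limma; 0 at an unadjusted p under 0.05) and 15 did not pass. Among the 13 cytosolic genes none fell (1 at an unadjusted p under 0.05), 1 rose and 12 did not pass. None of the 3 PTP4A genes passed (0 at an unadjusted p under 0.05). PTPRF and PTPRC lie on chromosome 8, PTPRS on 28, PTPRA on 4, PTPRE on 6 and PTPN12 on 1 in the RefSeq annotation. The difference between receptor-type and cytosolic members was not tested. Groups of samples did not overlap for 6 members that were lower (16.7%) and 5 that were higher (13.9%), where each direction takes 17.5% of all genes.

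**Figure D1:**
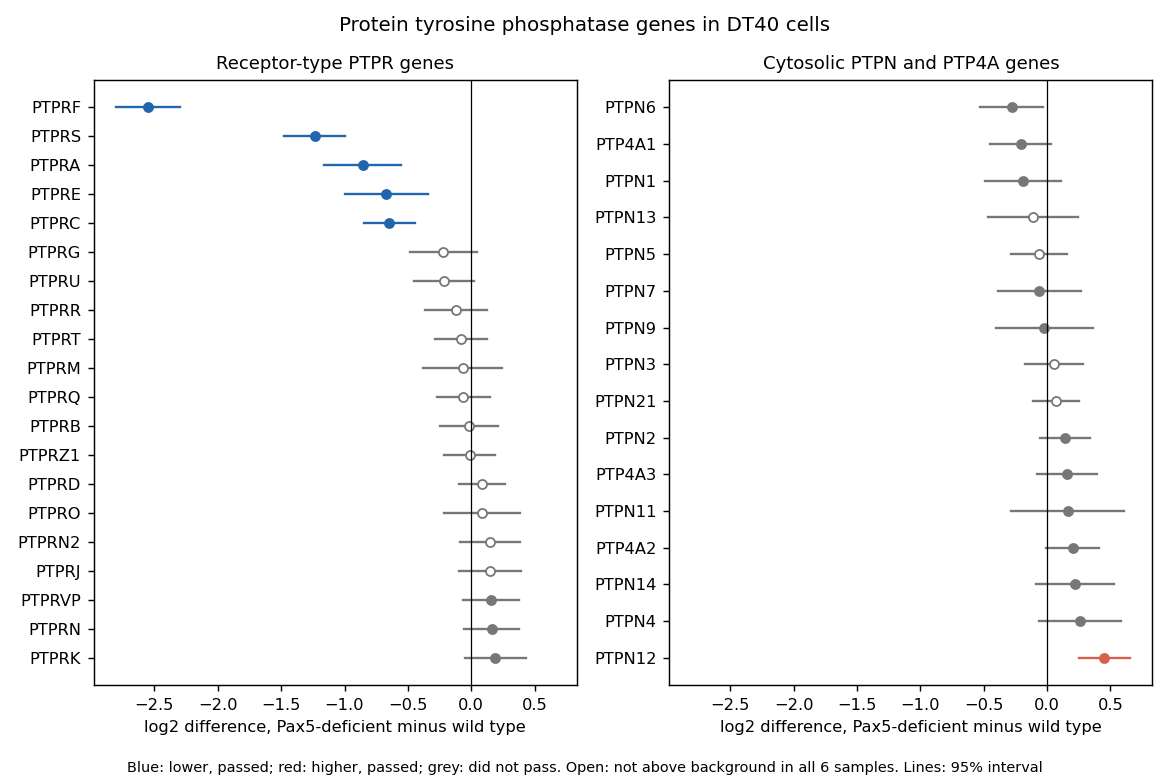
Difference of each of the 36 members (log2, Pax5-deficient minus wild type, 3 samples per group) with its 95% interval from limma, receptor-type genes on the left and cytosolic PTPN and PTP4A genes on the right. The 5 blue receptor-type genes lie between -2.55 and -0.65, the red PTPN12 lies at 0.45, and the 30 grey members that did not pass lie between -0.28 and 0.26; open circles mark members not above background in all 6 samples.

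PTPRF encodes LAR, a receptor with immunoglobulin-like and fibronectin-like repeats that is found at cell contacts and at synapses in mammals. Its brightest probe set read 10.79, 10.66 and 10.54 in wild-type replicates 1, 2 and 3, and 7.98, 8.05 and 8.29 in the Pax5-deficient replicates. The groups were far apart, and all 6 samples stayed well above background. PTPRF fell by 2.55 ± 0.11 (log2, SE, n = 3 in each group), which is 5.87-fold (limma, adjusted p = 2.57e-06). It ranked 56th by size among the 1267 genes that fell. Of its 5 probe sets 3 passed, all lower, and the remaining ones were at background throughout. One that passed fell by 1.43 ± 0.09, from 7.36 to 5.94 on average. The other fell by 2.17 ± 0.22 and read 4.30 in Pax5-deficient replicate 1, below the 5.27 and 5.14 of replicates 2 and 3. All 3 calls held when any 1 sample was left out, with adjusted p of at most 8.36e-05 for the brightest.

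PTPRS encodes another LAR-type receptor, which binds heparan sulphate and chondroitin sulphate proteoglycans in the mammalian nervous system. Its brightest probe set read 7.28, 7.64 and 7.44 in wild type and 6.26, 6.25 and 6.15 in Pax5-deficient cells. The 3 Pax5-deficient values lay within a narrow band below all wild-type values. PTPRS fell by 1.24 ± 0.11 (SE), or 2.36-fold (limma, adjusted p = 0.000152), the 230th by size among the genes that fell. PTPRS has 10 probe sets, the most of any member, and 3 passed, all lower, the other two with differences of -0.84 ± 0.14 and -0.71 ± 0.10. Of the 7 that did not pass, 1 was above background in all 6 samples and had a difference of -0.23 ± 0.11. Another, near background, had a difference of -0.35 ± 0.10 (adjusted p = 0.0512). The third gene of the type, PTPRD, was at background in all 6 samples, with values from 3.27 to 3.42. When a 2-fold change was also required, PTPRF and PTPRS were the members that passed, 5.56% of 36, where 2.9% of all genes passed lower and 1.13% higher.

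PTPRA and PTPRE encode receptors with a short extracellular part, and PTPRA is known to activate Src family kinases in mammalian cells. PTPRA read 6.76, 6.76 and 6.80 in wild type and 5.60, 6.10 and 6.05 in Pax5-deficient cells. The wild-type samples were almost identical, and Pax5-deficient replicate 1 was the lowest of its group. PTPRA fell by 0.86 ± 0.13 (SE), or 1.81-fold (limma, adjusted p = 0.00376), and its difference was -0.70 without that replicate. A second probe set, whose identifier shares its stem with the first, fell by 0.76 ± 0.17 (adjusted p = 0.0231). It again read lowest in Pax5-deficient replicate 1, at 5.25, beside 5.91 and 5.92, and it no longer passed when wild-type replicate 1, 2 or 3 was dropped (adjusted p = 0.0765, 0.0639 and 0.0882). The third probe set of PTPRA was at background throughout.

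PTPRE, present on the array with 1 probe set, read 6.02, 6.47 and 6.37 in wild type and 5.40, 5.79 and 5.66 in Pax5-deficient cells. The lowest wild-type value was still above the highest Pax5-deficient one. PTPRE fell by 0.67 ± 0.14 (SE), or 1.59-fold (limma, adjusted p = 0.0177). With wild-type replicate 2 or 3 left out, PTPRE no longer passed (0.0807 and 0.0733), nor with Pax5-deficient replicate 1 or 3 left out (0.0518 and 0.0515), while the difference stayed between -0.80 and -0.56.

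PTPRC, the gene of CD45 and a general marker of white blood cells, read 10.24, 10.38 and 10.38 in wild type and 9.66, 9.62 and 9.78 in Pax5-deficient cells. Both groups were tight and did not overlap. PTPRC fell by 0.65 ± 0.09 (SE), or 1.56-fold (limma, adjusted p = 0.00204). A second probe set, whose identifier shares its stem with the first, fell by 0.52 ± 0.09, from 9.54 to 9.02. The third was at background in all samples. Both calls held without any 1 sample. In cultured cells measured in bulk, fewer cells that carry a transcript and less transcript per cell cannot be told apart, and this holds for every change given here.

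**Figure D2:**
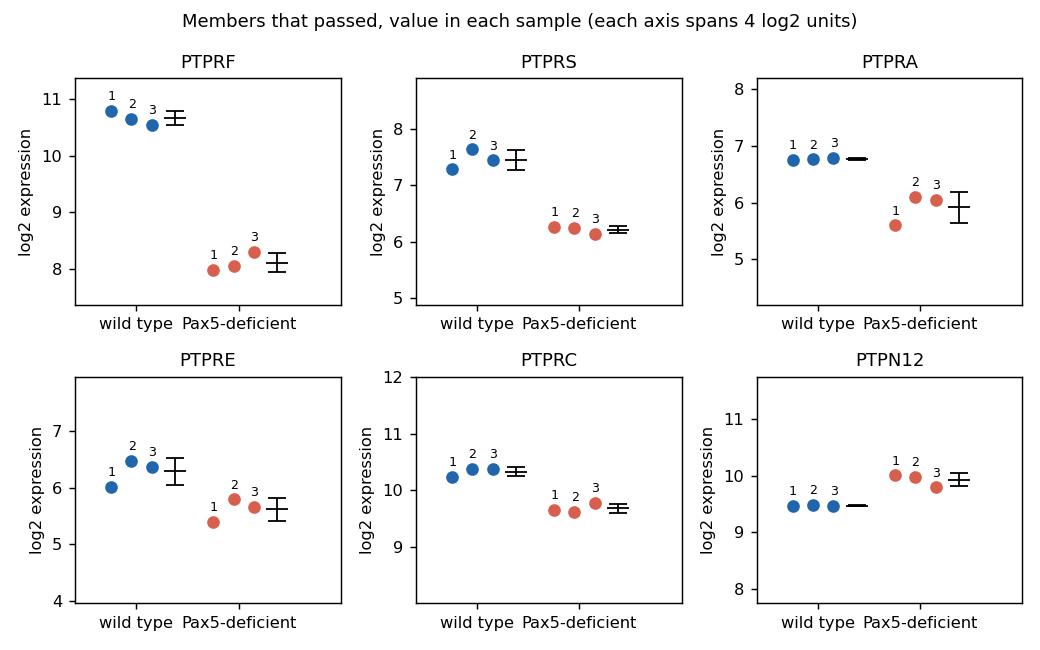
Log2 expression of the 6 members that passed in each of the 3 wild-type (blue) and 3 Pax5-deficient (red) samples, with the replicate number above each point and the mean ± SD beside each group. All axes span the same number of log2 units, so the gap in PTPRF (-2.55) can be set against that in PTPN12 (0.45), and Pax5-deficient replicate 1 is the lowest of its group in PTPRA, at 5.60.

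**Figure D3:**
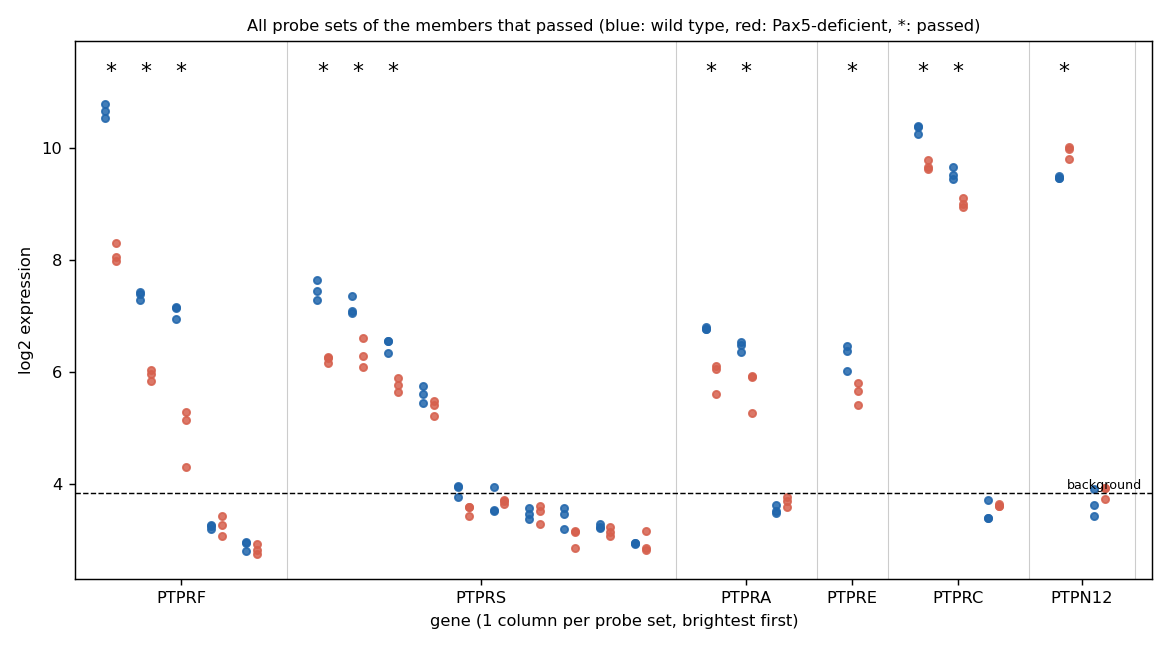
Log2 expression on every probe set of the 6 members that passed, 1 column per probe set with the brightest first, wild type in blue and Pax5-deficient in red, and an asterisk over those that passed. The dashed line is the mean background of 3.83; 12 probe sets passed, and apart from 1 of PTPRS at 5.59 in wild type those that did not pass lie at or near the background.

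**Figure D4:**
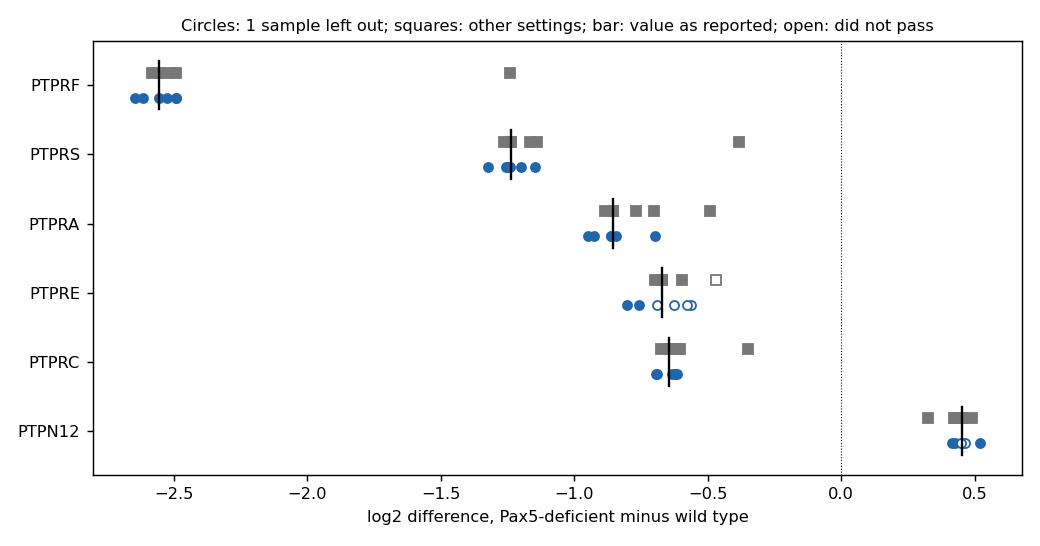
Difference (log2, Pax5-deficient minus wild type) of the 6 members that passed as reported (bar), with 1 sample left out (circles) and under the other settings (squares), open where the member did not pass. PTPRF, PTPRS, PTPRA and PTPRC passed in all 15 settings shown, PTPN12 in 12 and PTPRE in 10, and the squares nearest 0 for PTPRF (-1.24) and PTPRS (-0.38) are the mean over all probe sets of the gene.

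Over all 96 probe sets of the 36 members, 11 were lower (11.5%, against 6.7% of all probe sets) and 1 was higher (1.04%, against 3.93%), where 10.6% of all probe sets passed in either direction. When 2-fold was also required, 4 were lower (4.17%, against 1.85%) and 0 higher (against 0.692%). Groups did not overlap for 17 lower probe sets (17.7%, against 12.9%) and 14 higher ones (14.6%, against 14.4%). The 12 that passed belonged to the 6 genes named above. No member had probe sets that passed in opposite directions.

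The other receptor-type members were mostly dim. Of all 20 receptor-type genes, 8 were above background in all 6 samples, among them the 5 that fell. Another 8 were at background in all 6 and 4 were mixed. Of all 13009 genes, 8634 were above background in all 6 samples, 2852 were at background in all 6 and 1523 were mixed. PTPRK, a MAM domain receptor that binds its own kind on neighbouring cells in mammals, had a difference of 0.19 ± 0.11 from a wild-type mean of 4.92. PTPRN, known from secretory granules of mammalian endocrine cells, had one of 0.16 ± 0.10, and PTPRVP one of 0.16 ± 0.10. These 3 were above background throughout and did not pass. The remaining MAM domain genes PTPRM, PTPRT and PTPRU were above background in 5, 5 and 2 samples, and PTPRB, known from blood vessel endothelium, in 3. PTPRJ, PTPRO, PTPRQ, PTPRG, PTPRZ1, PTPRR and PTPRN2 were at background in every sample on the probe set that stands for the gene, as was PTPRD, so these values give no fold. The second probe set of PTPRN2 read 3.99 in Pax5-deficient replicate 2, above background, and was at background in the other 5 samples.

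PTPN12, also called PTP-PEST, acts on adhesion and cytoskeletal proteins such as PXN, BCAR1 and PSTPIP1 in mammals. It read 9.47, 9.49 and 9.46 in wild type and 10.01, 9.98 and 9.79 in Pax5-deficient cells. The wild-type samples differed by little, and all 3 Pax5-deficient samples were above them. PTPN12 rose by 0.45 ± 0.09 (SE), or 1.37-fold (limma, adjusted p = 0.0125), the 594th by size among the 782 genes that rose. With wild-type replicate 2 or 3 left out, PTPN12 no longer passed (0.0502 and 0.0508). Its second probe set was near background, with a difference of 0.20 ± 0.13 that did not pass. PTPN18 and PTPN22, the other PEST-type enzymes, were not analysed here.

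The SH2 domain enzymes did not pass. PTPN6 read 8.73, 8.79 and 8.62 in wild type and 8.37, 8.30 and 8.63 in Pax5-deficient cells. Pax5-deficient replicate 3 overlapped the wild-type range, and the difference was -0.28 ± 0.11 with a 95% interval from -0.53 to -0.03 before adjustment (limma, adjusted p = 0.171). PTPN11, which encodes SHP2, a positive regulator of the Ras pathway, read 8.01, 8.20 and 8.31 in wild type and 7.83, 8.61 and 8.56 in Pax5-deficient cells. Its difference of 0.16 ± 0.20 had an interval from -0.28 to 0.61, wide because Pax5-deficient replicate 1 lay below all wild-type samples and the other two above them.

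PTPN1 and PTPN2 encode PTP1B and TC-PTP, small enzymes that act on JAK kinases, STATs and the insulin receptor. PTPN1 read 6.02, 6.31 and 6.19 in wild type and 6.12, 6.11 and 5.73 in Pax5-deficient cells, a difference of -0.19 ± 0.13 (95% interval -0.49 to 0.11). PTPN2 read 9.42, 9.45 and 9.34 in wild type and 9.47, 9.59 and 9.59 in Pax5-deficient cells, a difference of 0.14 ± 0.09 (interval -0.05 to 0.34). The PTPN2 groups did not overlap on either of its probe sets, and neither passed (limma, adjusted p = 0.392 and 0.172).

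The remaining cytosolic members included enzymes with a FERM domain, which places proteins at the cell cortex. PTPN4 and PTPN14 had differences of 0.26 ± 0.14 and 0.22 ± 0.14 at wild-type means of 7.15 and 5.05. PTPN13 was above background in 4 samples, and PTPN3 and PTPN21 in none. PTPN7, an enzyme of blood cells that binds MAP kinases, had a difference of -0.06 ± 0.15 from a wild-type mean of 7.18, and the related PTPN5, known from neurons, was at background throughout. PTPN9 had a difference of -0.02 ± 0.17 close to background.

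The 3 PTP4A genes encode small prenylated phosphatases, also called PRL, that bind magnesium transporters of the CNNM family. All were bright in both groups. PTP4A1 read 10.05, 10.09 and 10.01 in wild type and 9.64, 9.93 and 9.96 in Pax5-deficient cells, a difference of -0.21 ± 0.11. PTP4A2 read 10.37, 10.59 and 10.40 in wild type and 10.69, 10.67 and 10.61 in Pax5-deficient cells, a difference of 0.20 ± 0.09. Neither pair of groups overlapped, PTP4A1 being lower and PTP4A2 higher, and neither passed (limma, adjusted p = 0.298 and 0.235). PTP4A3 had a difference of 0.16 ± 0.10 on its brightest probe set. One of its other 4 probe sets had a larger difference of 0.63 ± 0.21, with 7.11 in Pax5-deficient replicate 1 beside 6.17 and 6.39, and did not pass (adjusted p = 0.104). Another, dimmer one read 4.33, 4.40 and 4.55 in wild type and 4.84, 4.71 and 4.72 in Pax5-deficient cells, with no overlap, and its difference of 0.33 ± 0.09 did not pass either (limma, adjusted p = 0.057).

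Genes that work with the phosphatases were described by 4 lists, whose counts are to be read against the 9.74% of all genes that were lower and the 6.01% that were higher. The lists were drawn from textbook knowledge and chosen with earlier results of these data known, so their shares are descriptive only. Whether each listed gene has the role that names its list was not examined. CD79B, BTK, BLNK and SYK of the substrates and kinases, and CD72 of the docking genes, are also among the B cell markers above. Of 39 measured substrates and opposing kinases, 11 fell (28.2%), 3 rose (7.69%) and 25 did not pass, with a median difference of -0.05. CD79B, which encodes a signalling chain of the antigen receptor, fell by 2.29 ± 0.11 (SE), and LYN, the main Src family kinase of B cells, fell by 1.70 ± 0.11. BTK, a kinase downstream of them, fell by 0.87 ± 0.09, and VAV2, which is phosphorylated after antigen receptor engagement, fell by 0.72 ± 0.09. All 4 calls held without any 1 sample (limma, adjusted p of at most 0.0076). CSK, the kinase whose mark on Src family kinases CD45 removes, was singled out after its values were seen. It read 6.83, 7.20 and 7.02 in wild type and 5.42, 6.27 and 5.71 in Pax5-deficient cells, a difference of -1.21 ± 0.20 (limma, adjusted p = 0.00465). CSK passed without any 1 sample (limma, adjusted p of at most 0.0296). With Pax5-deficient replicate 1 and wild-type replicate 2 both dropped, chosen after seeing the data, CSK did not pass (-0.93, adjusted p = 0.0583). Levels of PTPRC, LYN and CSK were thus all lower in the Pax5-deficient samples, while SYK, also singled out afterwards, had a difference of 0.29 ± 0.11 that did not pass. FYN, another Src family kinase singled out afterwards, was above background in 4 samples and had a positive difference of 0.59 ± 0.17. It did not pass (limma, adjusted p = 0.0669), but did with the mean of all probe sets of a gene (0.0372) and with a variance trend (0.0403). Of some PTPN12 substrates, also chosen after their values were seen, PSTPIP1 rose by 1.09 ± 0.19, from 4.18 to 5.27 on average. PTK2, the focal adhesion kinase, fell by 2.06 ± 0.27, and PTK2B of the same list fell by 0.50 ± 0.08 (limma, adjusted p = 0.00432). PXN and BCAR1 had differences of 0.16 ± 0.08 and 0.19 ± 0.14 and did not pass.

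Of 14 measured genes listed as docking receptors and adaptors of SHP1 and SHP2, 3 fell (21.4%), 1 rose (7.14%) and 10 did not pass, with a median of 0.04. CD72, a B cell coreceptor whose cytoplasmic tail recruits SHP1, fell by 4.02 ± 0.12 (SE), and BTLA, an inhibitory receptor that binds both enzymes, fell by 1.39 ± 0.13. The adaptor DOK3, an inhibitor of B cell receptor signalling, fell by 1.58 ± 0.21, and whether it binds either enzyme was not examined. GAB3, of the adaptor family that carries SHP2, rose by 0.70 ± 0.14, a call that was lost without wild-type replicate 2 (limma, adjusted p = 0.0579).

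Of 27 measured ligands and scaffolds of receptor phosphatases and CNNM genes, 1 fell (3.7%), 3 rose (11.1%) and 23 did not pass, with a median of 0.06. MDK encodes midkine, a secreted ligand of PTPRZ1 in mammals, and fell by 2.60 ± 0.19, while PTPRZ1 itself was at background in all 6 samples. IL1RAP and GPC4, both partners of LAR-type receptors at mammalian synapses, rose by 0.77 ± 0.14 and 0.81 ± 0.18. IL1RAP passed without any 1 sample (limma, adjusted p of at most 0.035). It did not pass with Pax5-deficient replicate 1 and wild-type replicate 2 both dropped (limma, adjusted p = 0.0877). PPFIBP1, which encodes a liprin, rose by 0.35 ± 0.09. The PPFIBP1 call was lost whichever sample was left out (limma, adjusted p up to 0.127). GPC4 passed only without Pax5-deficient replicate 1 or without Pax5-deficient replicate 2 (up to 0.0769 in the others). With the mean of all probe sets of a gene, PPFIBP1 (0.17) and GPC4 (0.42) did not pass (limma, adjusted p = 0.152 and 0.0601).

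The last list held 24 measured genes entered as other phosphatases of phosphotyrosine or phosphoinositides, and whether each has such activity was not examined. Of these, 3 fell (12.5%), none rose (limma, 4 at an unadjusted p under 0.05) and 21 did not pass, with a median of 0.02. UBASH3B, which removes phosphate from SYK-type kinases, fell by 1.46 ± 0.15 (SE). The lipid phosphatases MTMR2 and MTM1 fell, with differences of -1.02 ± 0.17 and -0.55 ± 0.12. MTMR2 passed without any 1 sample (limma, adjusted p of at most 0.0365), but not with the same 2 samples dropped (0.0603). MTM1 passed only without wild-type replicate 1 or without Pax5-deficient replicate 2 among the fits that left out 1 sample (limma, adjusted p up to 0.0825). With the mean of all probe sets of a gene, MTM1 had a difference of -0.21 and did not pass (limma, adjusted p = 0.116). CDC25A, the next in order, had a difference of 0.33 ± 0.10 and did not pass (limma, adjusted p = 0.0612). It passed with the mean of all probe sets of a gene (0.031), after quantile normalization (0.0464), with a variance trend (0.0441) and without wild-type replicate 2 (0.0465).

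**Figure D5:**
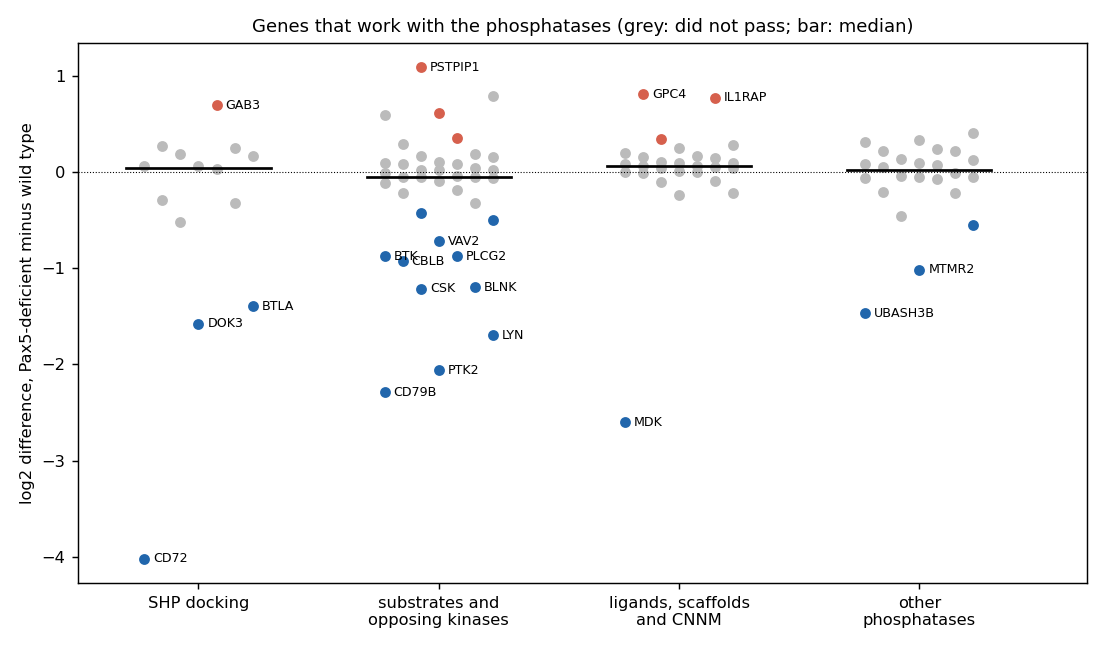
Difference (log2, Pax5-deficient minus wild type) of every measured gene in the 4 lists of genes that work with the phosphatases, 1 point per gene on its brightest probe set, blue or red where it passed lower or higher, with a bar at the median. The medians lie between -0.05 and 0.06, and CD72 at -4.02 and MDK at -2.60 lie lowest in their lists.

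The genome around the members that passed was examined through the 2 nearest measured genes on each side, in the order of the GRCg7b assembly. Of these 24 neighbours, 5 fell, 2 rose and 17 did not pass, where 9.74% of all genes were lower and 6.01% higher. MGMT and MKI67, beside PTPRE, fell, with differences of -0.93 ± 0.10 and -0.56 ± 0.08, and both calls held without any 1 sample (limma, adjusted p of at most 0.0198). NEK7, the second gene from PTPRC, fell by 0.84 ± 0.17, a call that held in 4 of the 6 fits with 1 sample left out. The calls of HYI, UHRF1, GSAP and MRPS26 held in at most 1 such fit. PTPRF and PTPRS each lie next to a gene of the KDM4 family of histone demethylases. KDM4A, beside PTPRF, had a difference of -0.30 ± 0.12 and KDM4B, beside PTPRS, one of -0.51 ± 0.15, and neither passed (adjusted p = 0.179 and 0.0614). KDM4B passed when probe sets under the median level were left out (limma, adjusted p = 0.0467). The median difference over all genes of a chromosome that holds one of the 6 members lay between 0.01 and 0.04.

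Genes listed as markers of other cell types moved in part with the groups. Their counts are to be read against the 9.74% of all genes that were lower and the 6.01% that were higher. Of 7 measured myeloid markers 2 fell, and the mean level over the list was 4.95 to 5.025 in wild type and 4.518 to 4.657 in Pax5-deficient samples. The median difference over this list was -0.03, so the 2 that fell account for most of the shift in its mean. CEBPB and SPI1 were the markers that fell, with differences of -1.75 ± 0.19 and -1.04 ± 0.12, while LYZ and MARCO were at background in all 6 samples. CEBPB and SPI1 were above background in all 6, SPI1 at 9.07 in wild type on average, so neither is read here as a sign of myeloid cells. Of 9 measured T lineage markers 2 rose and 1 fell, with a mean of 4.705 to 4.834 in wild type and 4.96 to 5.085 in Pax5-deficient samples, and CD4, CD28 and GATA3 were at background throughout. The median difference over this list was 0.02, so CD247 accounts for most of the shift in its mean. CD247, the zeta chain of the T cell receptor complex, rose by 2.27 ± 0.27 and CD8A rose by 0.52 ± 0.12, while CD3E fell by 0.51 ± 0.13. CD3D was bright in both groups, at 11.48 in wild type and 11.19 in Pax5-deficient samples on average, and did not pass (limma, adjusted p = 0.0811). Of 10 fibroblast and stromal markers 1 rose and 1 fell (means of 4.726 to 4.849 in wild type and 4.751 to 4.87 in Pax5-deficient samples), with DCN, LUM, PDGFRA and ACTA2 at background. VIM, bright at 10.4 in wild type, fell by 0.88 ± 0.11, and COL1A2 rose by 0.50 ± 0.10 (limma, adjusted p = 0.00145 and 0.0105). None of 5 erythroid and thrombocyte markers passed (limma; 1 at an unadjusted p under 0.05), with means of 4.476 to 4.618 and 4.568 to 4.797. Their part in the phosphatase results was not tested.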

How the data were processed

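Total RNA, biotin-labelled, was measured on Affymetrix chicken arrays, 1 per sample. The authors deposited log2 expression values, computed with RMA per the submitters' processing notes; no source used here gives the software or its version. RMA can shrink differences of dim probe sets, and whether it did so here was not tested. The 96 AFFX controls were left out and 38439 probe sets fitted in R 4.3.3 with limma 3.58.1 (group as the only term, eBayes, two-sided, Benjamini-Hochberg). Standard errors are limma's moderated ones. Of the probe sets 27168 had 1 symbol in the platform annotation, 177 several and 11094 none; RefSeq (GRCg7b) changed 0 symbols. BLNK was matched as SH2D6. The annotation names no build, so no coordinates are given. The fit was also run on simulated data with independent normal noise and known changes planted in brighter probe sets. Such data check the code and say nothing about clone effects, dependent replicates or dim probe sets. Plots were drawn with matplotlib in Python 3.11.15.

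The members and gene lists were chosen with earlier results of these data known. Every member was named. Values per sample were given for members that passed and for PTPRC, PTPN6, PTPN11, PTPN1 and PTPN2, and in each of the 4 partner lists up to 4 genes, those of smallest adjusted p, were named. Named outside that rule, after their values were seen, were CSK, SYK, SRC, FYN, PSTPIP1, PTK2, PTK2B, PXN, BCAR1, the neighbours and the cell type markers. The values per sample of PTP4A1 to PTP4A3 and PAX5 were likewise given after they were seen. Alternatives were quantile normalization, centring, a filter on dim probe sets, a variance trend, a replicate block, leaving out samples, other probe set choices and stricter thresholds.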

Additional observations from a re-analysis of the deposited data

How the results depend on the processing

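PTPRF, PTPRS, PTPRA and PTPRC passed, lower, under all alternatives run that keep the threshold of 0.05 and add no fold, with differences of -2.64 to -1.24, -1.32 to -0.38, -0.95 to -0.49 and -0.69 to -0.35. The smallest sizes came with the mean of all probe sets of a gene, which takes in those at background. PTPRE (-0.80 to -0.47) and PTPN12 (0.33 to 0.52) passed in 10 and 12 of 15 settings. Leaving out 1 sample gave 1286 to 2097 genes and 2490 to 4172 probe sets past the threshold, and 4 to 5 members lower and 0 to 1 higher. A fit without Pax5-deficient replicate 1 and wild-type replicate 2, chosen after seeing the data, gave 1026 genes, 1992 probe sets and 0 members higher. Pax5-deficient replicate 1 read lowest of its group for PTPRA, PTPRF and PTPRE, and wild-type replicate 2 read highest of its group for PTPRE. An adjusted p of 0.01 gave 1152 genes, 2158 probe sets and 0 members higher; 2-fold added to 0.05 gave 524 genes, 977 probe sets, 2 members lower and 0 higher.

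In the lists, with 1 sample or that pair left out, the counts were 0 to 1 higher for docking genes, 1 to 3 higher and 1 to 2 lower for ligands and scaffolds, 0 to 1 higher and 1 to 4 lower for other phosphatases, and 7 to 11 lower for substrates and kinases. At 0.01, docking genes had 0 higher and ligands and scaffolds 1. With 2-fold added, docking genes and ligands and scaffolds had 0 higher, and substrates and kinases 1 higher and 5 lower. The mean of all probe sets gave 1 higher for ligands and scaffolds and 2 for other phosphatases, the most variable probe set 2 for the latter, quantile normalization 3 and the variance trend 1. The cause of these moves was not tested.

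Of members that did not pass, several changed sign with small values. With the mean of all probe sets, PTPN13 was 0.0587, PTPN7 0.0195, PTPRM 0.0594 and PTPRT 0.0246. With the most variable probe set, PTPRN was -0.158 and PTPRT 0.0464, and with quantile normalization PTPN7 was 0.0533. With 1 sample or that pair left out the ranges crossed 0 for PTPN13 (-0.286 to 0.0742), PTPN3 (-0.0196 to 0.133), PTPN5 (-0.147 to 0.0101), PTPN7 (-0.189 to 0.0646), PTPN9 (-0.23 to 0.101), PTPRB (-0.115 to 0.0333), PTPRM (-0.196 to 0.0575), PTPRO (-0.0368 to 0.223), PTPRQ (-0.113 to 0.0062) and PTPRZ1 (-0.0695 to 0.0386). SRC, a gene of the substrates and kinases, also crossed 0 and moved far, from -0.105 to 1.365.

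The replicate numbers were not used to pair the samples. Deviations of same-numbered samples correlated at 0.115, 0.072 and -0.007 for replicates 1, 2 and 3. The values 0.115 and 0.072 were the highest between any wild-type and any Pax5-deficient sample. Wild-type replicate 3 correlated best with Pax5-deficient replicate 2 (0.058). With 3 samples in each group these values cannot settle whether samples were paired. With the replicate number as a block, 2024 genes and 4116 probe sets passed, and 5 members were lower and 1 higher, as without it.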

Other observations

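SRC, a kinase of the Src family, read 7.52, 7.13 and 7.80 in wild type and 7.63, 7.13 and 10.07 in Pax5-deficient replicates 1, 2 and 3. The third value stood alone, and the difference was 0.79 ± 0.63 with it and -0.10 without it, neither of which passed (limma).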
